A study of Mus musculus with 8 samples.

Results

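Rab GTPases are the largest family of small GTPases, and this account follows their mRNAs in cells of the mouse esophagus that differ in their load of autophagic vesicles. The members are the rows of the count table whose symbol is Rab followed by digits, with at most 1 letter and 1 further digit, so that regulators such as Rabgap1, pseudogenes and unnamed gene models are left out. This rule found 59 genes among 55276 rows. Epithelial cells came from the esophagus of C57BL6 mice 14 to 15 weeks old, 2 female and 2 male, with no transgene in the labels, whose treatment entry names only the Cyto-ID fraction. Cells that carried integrin beta-1 and excluded DAPI were sorted by their fluorescence with Cyto-ID, a dye taken up by autophagic vesicles. Each animal gave a dim fraction, Cyto-ID Low, and a bright fraction, Cyto-ID High, so there were 4 libraries of bulk RNA in each group. The comparison asks how the fraction rich in autophagic vesicles differed from the other.

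A Rab protein switches between a GDP-bound form held in the cytosol and a GTP-bound form anchored to a membrane by prenyl groups. Guanine nucleotide exchange factors (GEFs) load the GTP, GTPase-activating proteins (GAPs) end the active state, and effectors such as tethers and motors bind the active form and move or fuse the vesicle. Each compartment carries its own members, among them Rab1 and Rab2 between endoplasmic reticulum (ER) and Golgi, Rab5 on early endosomes, Rab11 on recycling endosomes, Rab7 on late endosomes and autophagosomes, and Rab3 and Rab27 on secretory granules. In stratified squamous epithelium, vesicle traffic carries adhesion molecules to and from the cell surface and lipid and protein cargo to the layers above the basal cells.

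The libraries held 26285150 to 29301054 counts. Of 10 basal keratinocyte genes all 10 were lower in Cyto-ID High, 10 of 11 tested suprabasal genes were higher, and all 10 proliferation genes were lower, by edgeR's quasi-likelihood test with an adjusted p under 0.05. The suprabasal genes summed to 10429 to 28065 counts per 1000000 counts of the library (CPM) in the Low and 149364 to 250957 CPM in the High libraries, and the basal genes to 21404 to 25420 and 2795 to 4516 CPM. The fractions therefore differed in keratinocyte layer markers as well as in dye, and the part of this in any Rab difference was not tested. In bulk samples, fewer cells of a type and less RNA per cell cannot be told apart. Among non-keratinocyte lists, fibroblast genes summed to 448 to 647 CPM in Low and 60.3 to 624 CPM in High libraries, the lowest being High Male2. Of the 10 fibroblast genes, 2 were called lower in High, Dcn (−2.87, from 114 to 15.3 CPM) and Fbln1 (−1.93, from 62.9 to 16.5 CPM), both without overlap of the fractions, and none was called higher. Gastric genes reached 115 CPM in High Female2 and 19.5 CPM in Low Female2, against at most 1.27 CPM in the other 6 libraries. Library sizes behind these CPM were corrected with TMM factors, which edgeR sets on the assumption that most genes keep their level. Scaling by total counts alone moved the median log2 fold change of all genes by −0.55, so calls under that scaling are given too.

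The results turn on the Rab11 subfamily, which has 3 members in the mouse: Rab11a, Rab11b and the epithelial form Rab25. Their promoters are shown because Rab11a and Rab25 rose in Cyto-ID High while Rab11b did not pass the test. The 3 genes lie on minus strands in GRCm38, Rab11a at chr9:64715299-64737758, Rab25 at chr3:88542029-88548300 and Rab11b at chr17:33742484-33760530. Each sequence below runs 5′ to 3′ from RefSeq (GRCm38.p6) and ends at the base before the gene's first exon, at chr9:64737759-64738006 for Rab11a, chr3:88548301-88548529 for Rab25 and chr17:33760531-33760736 for Rab11b. Capitals mark matches to 6 motifs searched on both strands, namely CACGTG of basic helix-loop-helix factors, TGANTCA of AP-1, AACCNGTT of grainyhead-like factors, CCAAT of NF-Y (written ATTGG on the other strand), GGGCGG of Sp factors (written CCGCCC on the other strand) and the TATAAA box. No motif in this set holds another.
Rab11a: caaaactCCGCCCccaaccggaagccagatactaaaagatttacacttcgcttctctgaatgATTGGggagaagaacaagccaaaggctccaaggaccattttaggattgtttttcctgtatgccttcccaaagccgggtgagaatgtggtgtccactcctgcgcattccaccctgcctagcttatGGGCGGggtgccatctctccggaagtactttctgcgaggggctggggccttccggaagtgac
Rab25: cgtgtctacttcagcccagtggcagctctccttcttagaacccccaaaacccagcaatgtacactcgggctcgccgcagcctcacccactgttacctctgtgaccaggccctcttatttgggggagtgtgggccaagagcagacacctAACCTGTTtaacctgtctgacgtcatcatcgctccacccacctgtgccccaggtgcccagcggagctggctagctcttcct
Rab11b: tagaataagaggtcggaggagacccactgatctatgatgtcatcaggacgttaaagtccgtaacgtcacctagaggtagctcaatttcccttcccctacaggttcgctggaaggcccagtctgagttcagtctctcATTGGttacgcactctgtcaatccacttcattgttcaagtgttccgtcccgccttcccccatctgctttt

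The Rab11a stretch held 2 matches to GGGCGG and 1 to CCAAT. The Rab25 stretch held 1 match to AACCNGTT, whose factors are known from epithelia. The Rab11b stretch held 1 CCAAT and no other motif of the set. The next shares are for windows of 250 bases upstream of a start, which are longer than the 206 to 248 bases printed. Over all 32851 such windows, AACCNGTT was found in 1.79%, CCAAT in 33.8% and GGGCGG in 32.7%. RefSeq promoters were matched for 48 of the 59 members, with 60 windows. Among the member windows 40 held GGGCGG, 24 CCAAT, 5 CACGTG and 1 AACCNGTT. The window with AACCNGTT was that of Rab25. These matches describe letters and were not linked to binding.

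Of the 59 members, 50 passed the filter on low counts and 34 of them passed the test between fractions, 23 higher and 11 lower in Cyto-ID High. Over all 17344 genes tested, 48.7% were called, 23.4% higher and 25.3% lower. The higher calls made up 46% of the tested Rab genes, and the lower calls made up 22%, near the background share. With the animal as a block the same 34 genes were called, against 25.4% of all genes called higher and 28.5% lower. Over the 50 genes the median change in log2 was 0.41, against −0.09 over all genes tested. The Rab median was 0.23 without High Male2, where the filter was run anew and the Rab genes tested could differ from the 50. All 34 called genes had the same sign in all 4 animals. Leaving out both libraries of 1 animal ended the call of 8 of them for at least 1 animal: Rab2a, Rab2b, Rab5b, Rab9, Rab22a, Rab23, Rab27a and Rab43. Past a log2 fold change of 1 in size there were 11 higher genes, against 13.3% of all genes, and 7 lower genes, against 15.3%. The High and Low libraries did not overlap for 23 higher genes (23.6% of all genes) and 10 lower genes (24.9%). These are not quite the called genes, since Rab8b was separate without a call, and the called Rab5b and Rab15 overlapped. The filter could be passed through 1 group alone, and 4 of the 50 genes had under 10 counts in some library.

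Under total-count scaling 10 Rab genes were higher (12.6% of all genes) and 17 lower (49.1%), and the median of the family was −0.16 against −0.64 over all genes. All 11 lower genes of the TMM fit kept their call, and 10 of the 23 higher genes did: Rab44, Rab25, Rab27b, Rab11a, Rab3d, Rab10, Rab40b, Rab24, Rab6a and Rab1b. The other 13 were not called with total counts, with log2 values of −0.08 to 0.47, and 5 of them (Rab2a, Rab22a, Rab5b, Rab21 and Rab9) were under 0. The 6 genes that were called lower with total counts and not with TMM were Rab11b, Rab33b, Rab32, Rab28, Rab5a and Rab8b. The share of all counts that fell on Rab genes needs no scaling factor. It was 0.337%, 0.372%, 0.332% and 0.374% in the Low libraries of Female1, Female2, Male1 and Male2, and 0.444%, 0.543%, 0.464% and 0.467% in their High libraries. The lowest High library thus stood above the highest Low library.

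**Figure D1:**
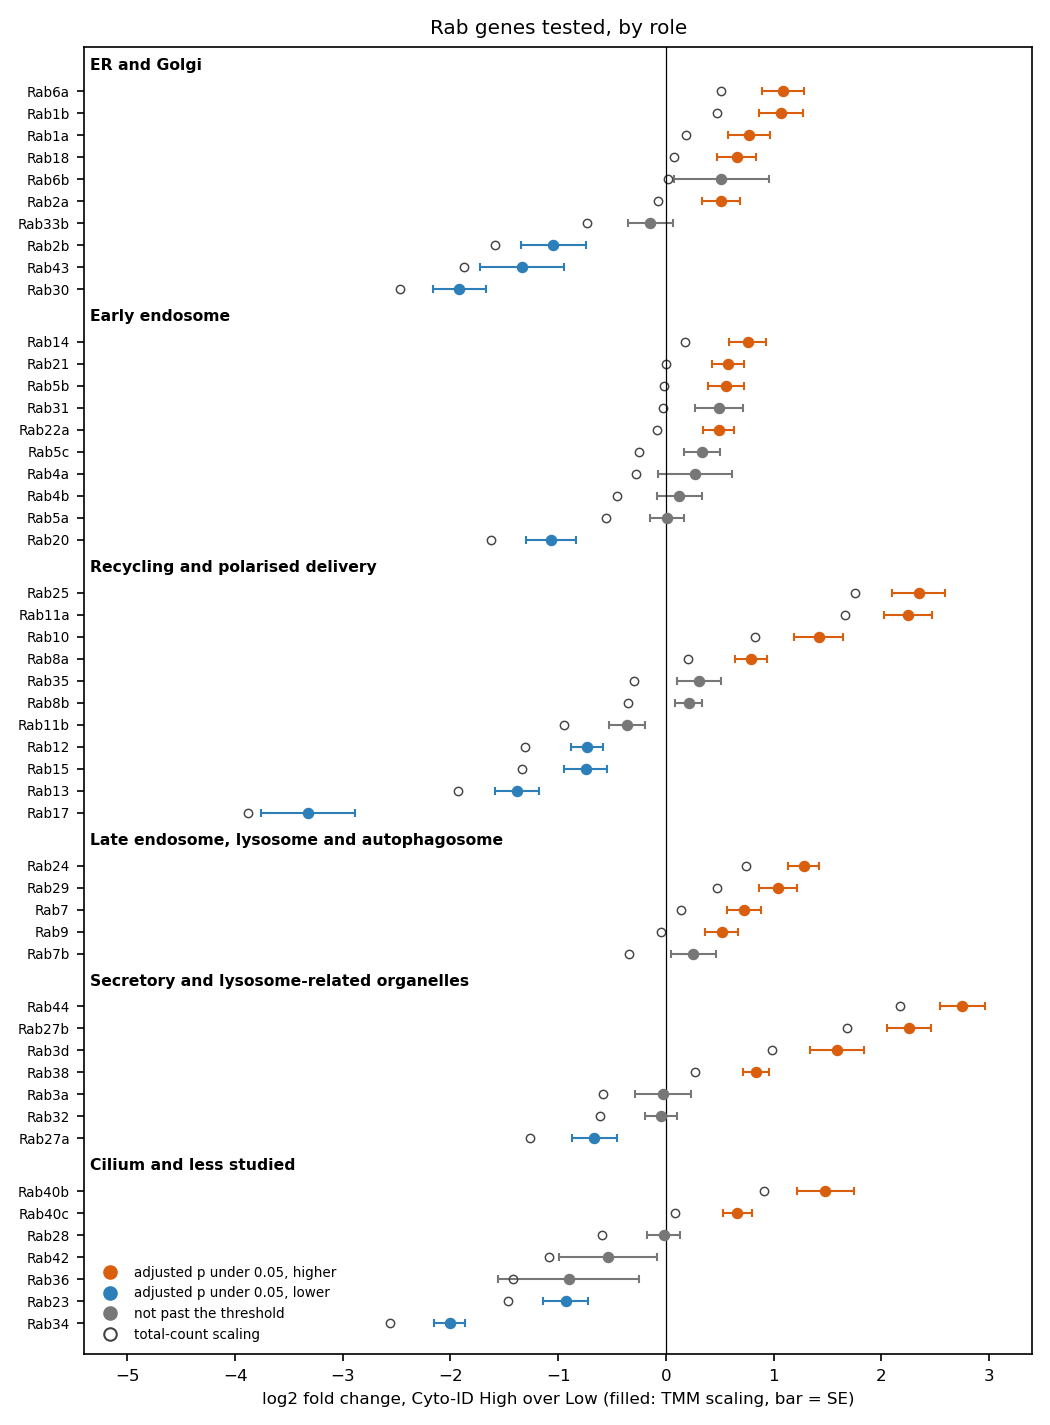
Log2 fold change of Cyto-ID High over Low for the 50 Rab genes tested, grouped by the role of the protein, with filled points for TMM scaling, bars for the standard error and open circles for scaling by total counts. Rab44 (2.75), Rab25 (2.35), Rab27b (2.26) and Rab11a (2.25) lie farthest to the right and Rab17 (−3.32) and Rab34 (−2.01) farthest to the left, and the open circles lie to the left of the filled points.

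The recycling and polarised delivery group held Rab25 and Rab10, the 2 highest Rab mRNAs per kilobase, and had calls in both directions. Its 11 members were all tested, and 4 rose, 4 fell and 3 did not pass. Rab25, which directs integrin and apical cargo through recycling endosomes, stood at 127, 161, 110 and 196 CPM in the Low libraries of Female1, Female2, Male1 and Male2, and at 639, 761, 618 and 1028 CPM in their High libraries. This order of animals is kept for every gene. Every High library was above every Low library. In log2 the difference was 2.35 (SE 0.25, edgeR adjusted p = 5.21e-05), a fitted fold of 5.10, with group means of 149 ± 38.1 and 762 ± 189 CPM (SD, n = 4 each).

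Rab11a, the widely expressed recycling endosome Rab, had 107, 103, 89.6 and 142 CPM in Low and 412, 661, 454 and 573 CPM in High. All 4 High libraries exceeded all 4 Low libraries, and the log2 difference was 2.25 (SE 0.22, edgeR adjusted p = 3.62e-05). Its close paralog Rab11b had 62.9, 56.9, 71.2 and 67.3 CPM in Low and 41.7, 49.2, 41.9 and 68.5 CPM in High. These ranges overlapped through High Male2, and the difference in log2 of −0.36 (SE 0.16, edgeR adjusted p = 0.0984) did not pass. It did pass as lower with total-count scaling, at −0.95. Of the 50-base windows of Rab11b, 13.6% are shared with other genes, among them the pseudogene Rab11b-ps2 with 552 to 1040 counts, so some reads could have been assigned to either.

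Rab10, which carries cargo from the Golgi and recycling endosomes to the basolateral surface, had 233, 296, 242 and 306 CPM in Low and 508, 957, 619 and 797 CPM in High. No library crossed between the groups, which differed by 1.42 in log2 (SE 0.23, edgeR adjusted p = 0.000621). Rab8a, which acts in apical delivery and in cilium growth, was at 61.3, 67.7, 69.5 and 66.7 CPM in Low and 99.3, 129, 100 and 130 CPM in High. It was called higher with TMM (log2 fold change 0.79, SE 0.15, edgeR adjusted p = 0.00147), with 0.21 and no call under total counts. Its paralog Rab8b did not pass (0.21, SE 0.13), nor did Rab35, a Rab of fast recycling (0.31, SE 0.20).

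The 4 members that fell were Rab15, Rab12, Rab13 and Rab17. Rab15, an early and recycling endosome Rab, had 57.5, 78.0, 66.4 and 73.3 CPM in Low and 29.9, 39.8, 37.1 and 59.5 CPM in High. Here High Male2 overlapped the Low range, although each animal was lower in High, and the log2 fold change was −0.75 (SE 0.20, edgeR adjusted p = 0.011). Rab12, linked to the transferrin receptor's route to the lysosome and to autophagy, had 24.1, 30.2, 27.0 and 30.5 CPM in Low and 15.5, 19.1, 14.7 and 17.9 CPM in High. All High values lay under all Low values (log2 fold change −0.73, SE 0.15, edgeR adjusted p = 0.00245). Rab13, a Rab of tight junction traffic, was lower by −1.38 (SE 0.21), from 6.01 ± 0.651 to 2.31 ± 0.407 CPM.

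Rab17, an epithelial Rab of apical recycling, had the most negative log2 fold change of the family but few reads. It is named after its values were seen, since its mean over both fractions lay under 5 CPM. It had 2.44, 1.59, 1.80 and 1.18 CPM in Low and 0.232, 0.131, 0.0763 and 0.257 CPM in High, from 39 to 79 counts and 2 to 6 counts. No High library came near a Low one. Since its High libraries all held under 10 counts, it passed the filter through the Low libraries, and its log2 fold change of −3.32 (SE 0.44) is given as a description. It was −3.36 and called lower when all genes with a count were tested.

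Secretory Rabs included the gene with the largest rise of the family. Of 11 members 7 were tested, 4 rose, 1 fell and 2 did not pass. Rab44, a large Rab with an EF-hand domain known from immune cell granules, lies at chr17:29114145-29148980 on the plus strand. It had 3.46, 3.77, 2.55 and 4.14 CPM in Low and 19.8, 22.1, 22.4 and 30.3 CPM in High. The High libraries did not overlap the Low ones, and the fitted fold was 6.74 (log2 fold change 2.75, SE 0.21, edgeR adjusted p = 1.48e-05). Since this gene is known from mast cells and other leukocytes, a mast cell list and a general leukocyte list were read beside it. Mast cell genes summed to 7.14 to 13.4 CPM in Low and 1.13 to 19.8 CPM in High libraries and none of the 6 tested passed. Their lowest sum was in High Male2, the library with the most Rab44, and their highest in High Female1, the High library with the least. The leukocyte list summed to 56.1 to 92.1 CPM in Low and 29.1 to 113 CPM in High libraries, the lowest being High Male2. Of 8 leukocyte genes tested, Cd68 and Cd52 were higher and none was lower. The rest were not called, namely Ptprc (−0.46), Csf1r (−0.60), Cd74 (−0.99), Lyz2 (−0.26), Coro1a (−0.20) and Itgam (0.35). Cd68, a lysosomal protein of macrophages, went from 4.45 ± 0.650 to 19.6 ± 5.14 CPM (2.13 in log2) without overlap, with 26.5 CPM in High Female1 and 19.3 CPM in High Male2, and Cd52 from 2.22 ± 0.783 to 4.17 ± 0.745 CPM (0.93 in log2). The part of mast cells or other leukocytes in the Rab44 values was not tested.

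Rab27b and Rab27a, which dock secretory granules and exosome-bearing endosomes, changed in opposite directions. Rab27b had 58.1, 50.2, 46.8 and 66.1 CPM in Low and 211, 349, 229 and 273 CPM in High. All High libraries were above all Low libraries, and the log2 difference was 2.26 (SE 0.21, edgeR adjusted p = 2.64e-05). Rab27a had 22, 28.5, 27.2 and 27.2 CPM in Low and 11.6, 21.8, 13.8 and 18.9 CPM in High. Its highest High library lay just under its lowest Low library, and the log2 fold change was −0.67 (SE 0.21, edgeR adjusted p = 0.0243). The call was lost without High Female1 (−0.52), Low Female2 (−0.60) or High Male1 (−0.56).

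Rab3d, a Rab of exocrine granules, had 108, 182, 128 and 175 CPM in Low and 317, 490, 379 and 608 CPM in High. Every High value exceeded every Low value, and the difference in log2 was 1.59 (SE 0.25, edgeR adjusted p = 0.000589). Female2 carried the gastric genes in both fractions, and without that animal the log2 fold change was 1.66 for Rab3d, 2.07 for Rab27b and 2.84 for Rab44. Rab38, which serves melanosomes and other lysosome-related organelles, rose by 0.84 (SE 0.12, edgeR adjusted p = 0.000339), from 45.1 ± 3.90 to 80.6 ± 6.58 CPM. The 6 melanocyte genes tested summed with the rest of their list to 7.21 to 11.2 CPM in Low and 2.01 to 10.3 CPM in High libraries, and only Pmel passed, as lower. Its paralog Rab32 (−0.04) and the neuronal Rab3a (−0.03) did not pass.

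**Figure D2:**
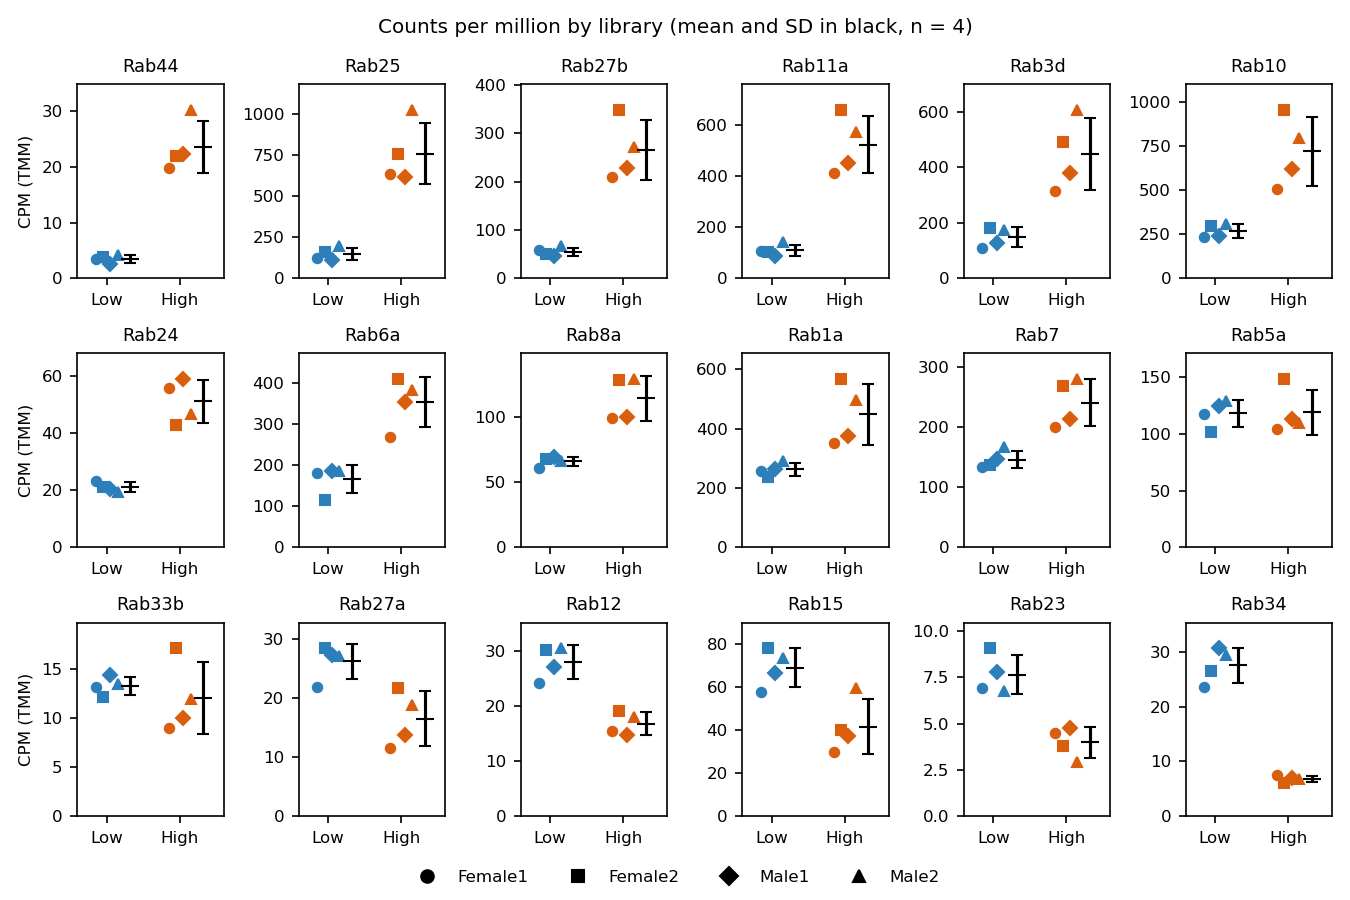
TMM-scaled CPM of 18 Rab genes in each library, with the symbol marking the animal, blue for Cyto-ID Low, orange for Cyto-ID High, and black bars for the mean and SD of 4 libraries. The High points stand clear above the Low points from Rab44 to Rab7, overlap them for Rab5a and Rab33b, and stand below them for Rab27a, Rab12, Rab23 and Rab34, while High Male2 of Rab15 at 59.5 CPM reaches into the Low range.

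The Rabs of late endosomes, lysosomes and autophagosomes had 8 members, of which 5 could be tested, 4 rose and none fell. Rab24, found on late autophagic vesicles, lies at chr13:55319743-55321946 on the minus strand and had 23.4, 21.3, 20.4 and 19.3 CPM in Low and 55.8, 43.1, 59.1 and 46.7 CPM in High. Each High library had more than any Low library, a difference in log2 of 1.28 (SE 0.15, edgeR adjusted p = 8.76e-05). Of its 2015 exon bases, 62.4% lie opposite exons of Prelid1, a lipid transfer gene of mitochondria. Prelid1 itself was higher by 0.84 (SE 0.20), from 184 ± 23.8 to 330 ± 78.0 CPM. Whether reads were counted by strand is not given in the sources used here, so reads of the pair may not have been told apart.

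Rab7, which brings autophagosomes and late endosomes to the lysosome, had 134, 136, 147 and 166 CPM in Low and 201, 268, 213 and 280 CPM in High. The ranges did not overlap and the log2 fold change was 0.73 (SE 0.16, edgeR adjusted p = 0.00399), but 0.14 and not called with total counts. Of its 50-base windows 12.7% are shared with other genes, among them the pseudogene Rab7-ps1, which was higher by 0.81 on 937 to 1425 counts. Rab29, a Rab of the Golgi and stressed lysosomes, rose by 1.04 (SE 0.18) from 4.47 ± 0.647 to 9.19 ± 1.09 CPM, and Rab9, which returns receptors from late endosomes to the Golgi, rose by 0.52 (SE 0.15), with its call lost without High Female2 (0.41). Rab7b did not pass (0.25, SE 0.21).

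Of 10 early endosome Rabs, 4 rose, 1 fell and 5 did not pass. Rab5a, the regulator of early endosome fusion, had 117, 102, 124 and 129 CPM in Low and 104, 148, 113 and 109 CPM in High. Of the High libraries 3 lay within the Low range and Female2 lay above it, and the log2 fold change was 0.01 (SE 0.16, edgeR adjusted p = 0.968), or −0.56 with total counts, where it was called lower. Rab5c did not pass (0.34, SE 0.16), while Rab5b was called higher by 0.56 (SE 0.16). Rab14, between Golgi and endosomes, rose by 0.76 (SE 0.17), Rab21, an integrin-binding Rab, by 0.57 (SE 0.15) and Rab22a by 0.49 (SE 0.15). All 4 called rises lost the call with total counts. Without High Female2 the calls of Rab5b (0.45) and Rab22a (0.45) were lost, and without High Male2 that of Rab22a (0.43). Rab22a also lost its call with no filter on low counts (0.45, edgeR adjusted p = 0.0679). Rab20, a Rab of phagosomes and endosomes, fell by 1.07 (SE 0.23), from 3.78 ± 0.413 to 1.80 ± 0.316 CPM. The fast recycling Rabs Rab4a (0.27, SE 0.34) and Rab4b (0.12, SE 0.21) did not pass. Rab31, the paralog of Rab22a, was 0.49 (SE 0.22) and did not pass, with 25.9 CPM in High Female1 and 11.1 CPM in High Male2. Without the animal Male2 Rab31 was called higher (0.69, edgeR adjusted p = 0.0438), and without Male1 it was 0.31 and not called.

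Of 11 ER and Golgi Rabs, 10 were tested, 5 rose, 3 fell and 2 did not pass. Rab6a, a Golgi Rab of retrograde and exocytic carriers, had 181, 116, 186 and 185 CPM in Low and 269, 409, 353 and 382 CPM in High. The groups were separate, with Low Female2 below its group, and the log2 fold change was 1.09 (SE 0.20, edgeR adjusted p = 0.00132). Rab1a, which tethers carriers from the ER at the Golgi and takes part in autophagosome formation, had 256, 236, 265 and 292 CPM in Low and 351, 568, 374 and 497 CPM in High. The groups were separate at 0.77 (SE 0.19, edgeR adjusted p = 0.00775), and the value was 0.19 and not called with total counts. Its paralog Rab1b rose by 1.07 (SE 0.21) from 91.4 ± 14.8 to 193 ± 56.8 CPM. Rab6b, the neuronal form of Rab6a, did not pass (0.51, SE 0.44).

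Rab33b, a Golgi Rab that recruits Atg16l1 to the forming autophagosome, had 13.1, 12.1, 14.4 and 13.4 CPM in Low and 8.95, 17.2, 9.99 and 12 CPM in High. The High libraries spread to both sides of the Low ones, and the gene did not pass (−0.15, SE 0.21, edgeR adjusted p = 0.615), though it was called lower with total counts (−0.73). Rab18, of ER contacts and lipid droplets, rose by 0.66 (SE 0.18) and Rab2a by 0.51 (SE 0.17). The call of Rab2a was lost without Low Female1 (0.44), High Female2 (0.37), Low Male1 (0.42) or High Male2 (0.46), and with no filter on low counts (0.47, edgeR adjusted p = 0.0542). The members that fell were of low abundance and, with means under 5 CPM over both fractions, were singled out after their values were seen. Rab30, a Golgi Rab also linked to autophagy of bacteria, fell from 7.70 ± 1.65 to 2.03 ± 0.397 CPM (log2 fold change −1.92, SE 0.25, edgeR adjusted p = 0.00017). Rab2b (−1.04, SE 0.30) and Rab43 (−1.33, SE 0.39) stood at under 2 CPM. The call of Rab43 was lost without Low Female2 (−1.08) or Low Male1 (−1.30). Without both libraries of an animal the call of Rab2b was lost for Female1 (−0.94), Female2 (−1.11) and Male2 (−0.90). Exons of Rab2b lie over 64.0% of their length opposite Tox4 and Gm43766, and those of Rab6a over 19.0% opposite Mrpl48, and neither Tox4 (0.27) nor Mrpl48 (−0.17) passed. In the same way Rab20 lies in part opposite E230013L22Rik and Rab33b opposite Gm38160, while Rab43 shares exon bases with Gm45140 on its own strand. Rab4b shares 1368 of its 1970 exon bases with Gm21983 and Mir3101 on its own strand, and Gm21983 was listed at 0 counts in every library.

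Among cilium-linked and less studied members, 7 of 8 were tested, 2 rose, 2 fell and 3 did not pass. Rab34, a Rab of cilium assembly and lysosome position, lies at chr11:78188430-78192193 on the plus strand and had 23.6, 26.5, 30.7 and 29.4 CPM in Low and 7.49, 6.01, 7.02 and 6.74 CPM in High. The High libraries lay close together and far under the Low ones, with a log2 difference of −2.01 (SE 0.14, edgeR adjusted p = 1.36e-05), or 4.02-fold. Rab23, an inhibitor of Hedgehog signalling, had 6.95, 9.10, 7.80 and 6.76 CPM in Low and 4.51, 3.79, 4.77 and 2.93 CPM in High. Its groups were separate too (−0.93, SE 0.21, edgeR adjusted p = 0.0042). The call of Rab23 was lost without the animal Female2 (−0.78, edgeR adjusted p = 0.0601). Fibroblasts express both genes. Fibroblast genes summed to 624 CPM in High Female1, where Rab34 stood at 7.49 and Rab23 at 4.51 CPM, and to 60.3 CPM in High Male2, where they stood at 6.74 and 2.93 CPM. Of the 10 fibroblast genes, Dcn and Fbln1 were lower in High in all 4 animals, as Rab34 was. Fbln1 differed by −1.93 (SE 0.13) in log2. Each of the rest was higher in High in 2 animals and lower in 2, and was not called. Among these were Col1a1 (−0.30, SE 0.57) and Pdgfra (−0.42, SE 0.63). The part of fibroblasts in the values of Rab34 and Rab23 was not tested. Rab40b and Rab40c, which carry a SOCS box of ubiquitin ligases, rose by 1.48 (SE 0.26) and 0.66 (SE 0.14). Rab28 (−0.02, SE 0.15), Rab36 (−0.90, SE 0.65) and Rab42 (−0.54, SE 0.46) did not pass. Without the animal Female1 Rab36 was called lower (−1.98, edgeR adjusted p = 0.0455). It had 18 counts in High Female1 against 1 to 5 in the other High libraries. Rab42 was −0.92 without Female1 and 0.007 without Female2, not called in either.

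The 9 members that could not be tested were Rab3b, Rab3c, Rab9b, Rab19, Rab26, Rab33a, Rab37, Rab39 and Rab39b. None had more than 21 counts in any library. Rab19 had 9 to 21 counts in Low and 0 to 4 in High libraries, and it was called lower when all genes with a count were tested (edgeR adjusted p = 0.0074, with 13.5% of all genes lower there). The others had at most 13 counts and were not called there.

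Levels of different genes were compared as CPM per kilobase of exon. Rab25 ranked first in both fractions, at 89.0 ± 22.8 in Low and 455 ± 113 in High. In Low it was followed by Rab10 (76.6 ± 10.6), Rab1a (69.1 ± 6.12) and Rab5c (63.8 ± 4.6), whose spreads overlapped with it. In High it was followed by Rab10 (205 ± 56.3) and Rab11a (175 ± 37.9), with Rab11a up from rank 9 and Rab3d from rank 10 to 5. Rab25 made up 10.2% of the summed Rab level in Low and 23.9% in High, and Rab11a 4.23% and 9.25%.

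Together Rab11a and Rab25 took 13.9%, 15.2%, 11.6% and 16.9% of the summed level in the Low libraries of Female1, Female2, Male1 and Male2, and 33.9%, 31.6%, 31.7% and 35.6% in the High ones. The whole recycling and polarised group went from 33.1 ± 2.38% to 48.6 ± 1.5% and its ranges were apart, at 30.1 to 35.1% and 46.9 to 50.5%. The early endosome group went from 16.5 ± 0.923% to 9.78 ± 0.551%, the ER and Golgi group from 25.5 ± 1.10% to 20.7 ± 0.730%, and the cilium and less studied group from 3.57 ± 0.307% to 1.57 ± 0.180%. The late endosome and lysosome group went from 11.7 ± 0.859% to 8.90 ± 0.732% while 4 of its genes were called higher. The secretory group held 9.72 ± 0.602% and 10.5 ± 0.388%, with overlapping libraries. As shares of summed CPM, without division by length, the secretory group differed between the fractions by 4.17 instead of 0.78 percentage points and the recycling group by 9.92 instead of 15.5.

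**Figure D3:**
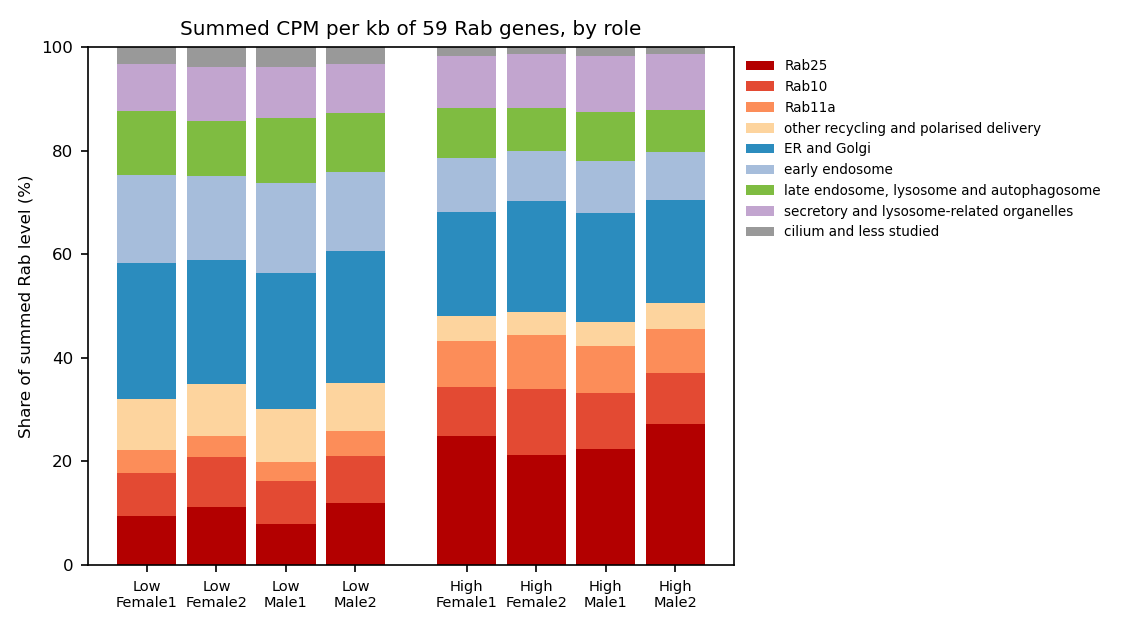
Share of the summed CPM per kilobase of all 59 Rab genes, in percent, that fell to Rab25, Rab10, Rab11a, the other recycling genes and each further role, with 1 stacked bar per library. The reds and pale orange, which mark the recycling and polarised group, end at 30.1 to 35.1% in the Low bars and at 46.9 to 50.5% in the High bars.

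Ratios between paralogs in 1 library need no scaling between libraries. Over 14 paralog pairs, 7 log2 ratios did not overlap between fractions, a share close to the 48.9% of all pairs of tested genes for which this held. In the exact two-sided permutation test each of the 7 had p = 0.0286, the smallest that 4 against 4 libraries allow. After Benjamini-Hochberg adjustment over the 14 pairs it was 0.0571, so 0 passed. The test shuffled libraries across animals, although each animal gave 1 Low and 1 High library. Shuffling within the 4 animals could not give so small a p. Rab11a over Rab11b went from 0.76 ± 0.31 to 3.39 ± 0.29, a shift of 2.63 in log2 or 6.18-fold. Rab27a over Rab27b went from −1.07 ± 0.32 to −4.02 ± 0.14, a shift of −2.95. Rab11a over Rab25 was −0.42 ± 0.18 in Low and −0.53 ± 0.27 in High, within its spread (exact permutation p = 0.571). The other separate pairs were Rab2a over Rab2b (1.57), Rab3a over Rab3d (−1.57), Rab32 over Rab38 (−0.89), Rab40b over Rab40c (0.85) and Rab8a over Rab8b (0.56).

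**Figure D4:**
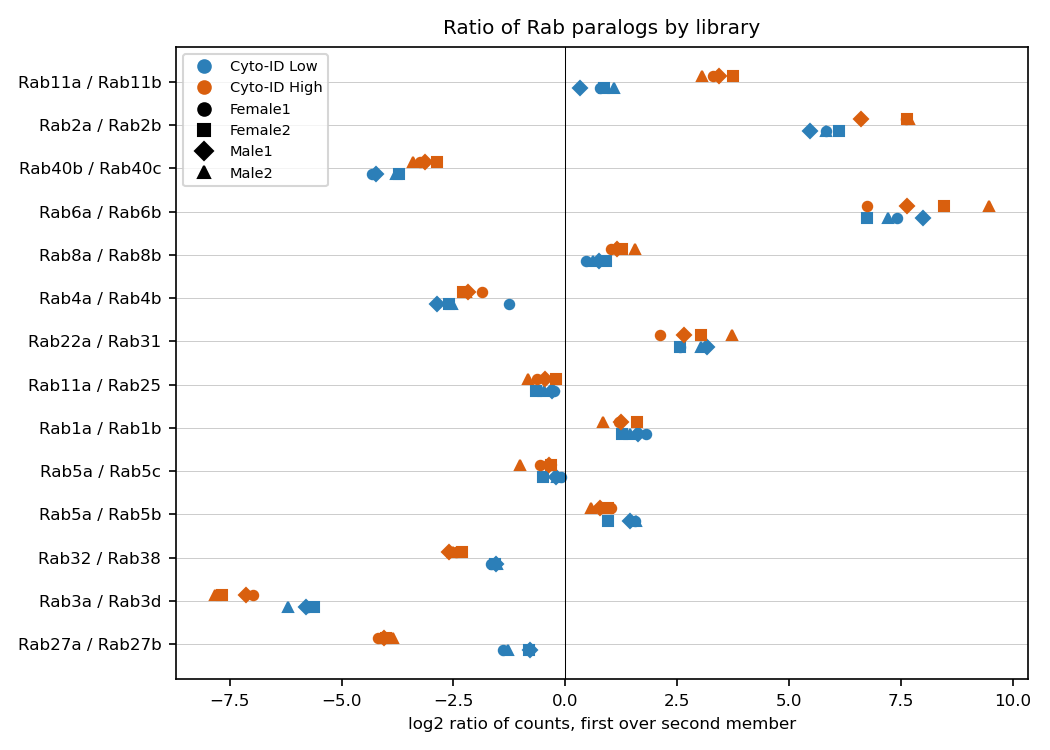
Log2 ratio of counts between the members of 14 Rab paralog pairs in each library, with blue for Cyto-ID Low, orange for Cyto-ID High and the symbol for the animal. The largest gaps between the colours are those of Rab27a over Rab27b and Rab11a over Rab11b, and the colours mix for Rab11a over Rab25.

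The proteins that load, unload and bind Rabs were read from a list of 146 genes, of which 141 were tested, 58 were higher, 22 lower and the median log2 fold change was 0.27. Over all genes tested the shares were 23.4% and 25.3% and the median −0.09. With total counts 32 were higher and 57 lower, against 12.6% and 49.1% of all genes. Of 8 genes for GDP dissociation inhibitors, escort proteins and prenylation, Rabif rose by 0.61 (SE 0.18; 0.03 with total counts) and none fell, and the main inhibitor Gdi2, at 328 ± 31.6 and 450 ± 86.8 CPM, did not pass (0.46, SE 0.18). With the animal as a block it was called higher (0.44, edgeR adjusted p = 0.0211), as was the escort protein gene Chm (0.41, edgeR adjusted p = 0.0230), which made 3 higher calls among the 8. Of 45 GEF genes 21 were higher and 5 lower. Dennd1b, a GEF for Rab35, rose by 1.47 and the TRAPP subunit Trappc1 by 1.31, while Rin1, a GEF for Rab5, was lower by −2.91 (62.7 ± 21.5 to 8.26 ± 2.24 CPM) and Dennd5a by −2.19. Of 37 tested GAP genes 13 were higher and 6 lower. Among them Tbc1d14, which binds Rab11 membranes and acts on autophagosome formation, was higher by 1.65 and Rabgap1l by 1.61, and Tbc1d8 and Tbc1d1 were both lower by −2.10.

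Of 51 effector genes tested 23 were higher and 11 lower. Myo5b, the motor that pulls Rab11 vesicles along actin, had the largest rise, from 19.7 ± 10.7 to 272 ± 55.9 CPM (log2 fold change 3.78, SE 0.44, edgeR adjusted p = 9.92e-05), and Myo5c rose by 3.43, whereas Myo5a did not pass (0.19, SE 0.14). Ehbp1, which binds Rab8 and Rab10, was lower by −1.90. The 5 Rab11 family interacting proteins went both ways. Rab11fip1 rose by 2.43 (155 ± 60.6 to 847 ± 203 CPM) and Rab11fip3 by 1.20, Rab11fip2 fell by 1.45 and Rab11fip4 by 2.30, and Rab11fip5 did not pass (−0.02). Of the 5 synaptotagmin-like genes, whose proteins bind Rab27, Sytl1 rose by 2.00 (121 ± 20.5 to 490 ± 109 CPM), Sytl2 and Sytl4 fell by 2.22 and 0.80, Sytl3 did not pass and Sytl5 was not tested. These 2 sets are given whole and were picked after their values were seen.

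The fraction difference was also compared between the sexes, with 2 animals of each. The interaction of sex and fraction called 0 of 17344 genes in edgeR's quasi-likelihood test, and 19 when p-values under 0.05 were left unadjusted. With the animal as a block these counts were 0 and 38. No Rab gene had an unadjusted p under 0.05, the lowest being 0.139. With 2 animals per sex this does not show that the sexes were alike.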

How the data were processed

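The authors deposited 1 table of raw read counts per gene symbol for 8 bulk RNA-seq libraries, and its values are whole numbers that sum to a different total in each library. The submitters' processing notes name STAR 2.7.3, DESeq2 and the GRCm38 build, and the counting tool and strand setting are not given in the sources used here. Each animal gave 1 Low and 1 High library. Deviations of the same animal's libraries correlated at −0.02 to 0.43 across genes, against −0.37 to 0.35 between animals, so the pairing rests on the animal names. The labels name 4 animals, so n = 4 counts animals.

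Tests used edgeR 4.0.16 under R 4.3.3 (filterByExpr, TMM factors, glmQLFit and glmQLFTest, sex as covariate), with Benjamini-Hochberg adjustment over all 17344 tested genes and a threshold of 0.05. The standard error is the size of the log2 fold change over the square root of F. CPM per kilobase uses the union of exons of GENCODE M21, and ratios of paralogs use counts plus 0.5. Tests were two-sided. Alternatives were RLE factors, total counts, no filter, a minimum of 10 counts, a robust fit, DESeq2 1.42.0, limma 3.58.1 (voom), no covariate, the animal as block and each library or sex left out. Leaving out each animal, the counts of calls in 1 sex and the blocked counts of regulators were added after seeing the data.

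The members, the 6 role groups and all lists were chosen with earlier results of these data known. Values per library are given for called members that averaged 5 CPM or more and moved alike in 4 animals, taking the 8 largest log2 fold changes in each direction (only 5 lower ones qualified) and for 10 fixed members. Those of Rab11b and Rab17 were added after their values were seen. Of each class of regulators, the called genes of at least 5 CPM with the 2 largest changes in each direction are named, with group means or log2 fold changes. Gdi2, Chm, Myo5a and the whole Rab11fip and Sytl sets were added after their values were seen.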

Additional observations from a re-analysis of the deposited data

Results flagged for a closer look

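In 2 of 100 groups of 4 libraries, formed by the 50 tested Rab genes and the 2 fractions, 1 library lay far from the others by Dixon's criterion, which chance meets in about 1 of 20 groups. Rab30 stood at 1.44 CPM in High Male2, the lowest value, against 2.17 to 2.31 CPM in the other High libraries. Rab6a stood at 116 CPM in Low Female2, against 181 to 186 CPM in the other Low libraries.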

How the results depend on the processing

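Of 36 Rab genes followed through all alternatives, 13 kept direction and side of the threshold in every one that could be run, and 27 did so when total-count scaling and the fits in 1 sex are set aside. With at least 10 counts in every library 2 genes, Rab17 and Rab43, could not be run, and Rab17 is among the 13. Total-count scaling called 10 Rab genes higher and 17 lower and turned their median to −0.16. It also turned Rab22a (−0.079), Rab2a (−0.069), Rab21 (−0.00025), Rab5b (−0.021), Rab9 (−0.046) and Rab5a (−0.56). With 2 animals per fit, female animals alone gave 14 higher and 5 lower Rab genes of 4420 genes called, and male animals alone 15 and 6 of 4739. Shares of all genes called in each direction are not given for these fits, so the counts lack a background. Rab33b was 0.13 in females alone, and Rab5a −0.21 in males alone. With no filter the median over all members was 0.23, with more genes of few reads in it. Leaving out 1 library ended the call of 6 Rab genes and leaving out 1 animal that of 8. Without 1 library or animal the Rab median ran from 0.23 (without High Male2) to 0.44, each over the Rab genes that passed the filter in that fit. Without the animal Male2, for example, Rab19 was tested too. Rab5a, never called with TMM, lay close to 0 and changed sign with no filter (−0.030), with at least 10 counts (−0.010), with the animal as a replicate block (−0.00051) and among the fits with 1 library or animal left out (−0.16 to 0.15). The replicate block, which gave 23 higher and 11 lower Rab genes and 9336 genes in all, changed no call of a Rab gene. Among regulators it gave 64 higher and 25 lower against 58 and 22, while over all genes it called 25.4% higher and 28.5% lower. The ratio of Rab22a to Rab31 shifted by −0.17 to 0.23 with 1 animal left out. Shares of summed CPM without division by length changed between fractions by −3.45 percentage points for ER and Golgi, −6.97 for early endosomes, 9.92 for recycling, −1.95 for late endosomes, 4.17 for secretory and −1.72 for cilium genes. Genes with few reads, such as Rab17, Rab43 and the 9 untested members, are limited by depth.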
